A study of Mus musculus with 6 samples.

Results

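Bone morphogenetic protein (BMP) signalling was examined through 10 genes that carry it from the cell surface to its targets: the receptor genes Bmpr1a and Bmpr2, the Smad genes Smad1, Smad4, Smad5, Smad6 and Smad7, and the target genes Id1, Id2 and Id3. These were taken by name, as the rows of the gene count table whose Ensembl identifiers map to those symbols. All 10 were found among the 28564 rows, and all 10 passed the filter on low counts that left 15122 genes tested. RNA had been sequenced from 3 samples of Apln-/- mice and 3 samples of wild-type control (C57Bl/6) mice, all male and 13 weeks old. Apln encodes apelin, a secreted peptide. The cells were epithelial cells of small intestinal crypts, sorted as live, EpCAM-positive, CD44-positive, CD31-negative and CD45-negative. The labels call the samples biological replicates. The sources used here do not say whether a sample came from 1 animal or from a pool, which part of Apln is deleted, or whether the groups were littermates. The p-values below therefore measure the spread between these samples.

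BMP ligands bind a pair of receptors at the cell surface, and the type II receptor then activates the type I receptor. The type I receptor phosphorylates the receptor-regulated Smads, which join the common Smad and enter the nucleus. The inhibitory Smads are themselves targets of the pathway and damp it. Id genes are among the best known targets, and their proteins bind E proteins and keep them from DNA. In the small intestine, mesenchymal cells make BMP ligands mainly toward the villus and BMP antagonists around the crypt base, and BMP signalling limits the self-renewal of crypt stem cells.

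Sequence upstream of the start that RefSeq gives is shown for Id2, a target gene with a fitted difference above 0, and Smad6, a target gene with a fitted difference below 0, because Smad complexes are known to bind GC-rich elements and GTCT boxes in promoters of BMP targets. RefSeq promoter windows on GRCm38.p6, the build of mm10, were searched for 7 of the 10 genes, over the 250 bases before each annotated start on both strands. Id1, Smad4 and Smad7 were not searched, so the counts below leave them out, among them Smad7, itself a target gene. GGCGCC, which reads the same on both strands, was found for 4 of these 7 genes (Bmpr1a, Bmpr2, Id2 and 1 of 3 windows of Smad5), beside 10.8% of all 27025 genes with a window. GTCT (AGAC on the other strand) was found for 4 of the 7 (Id2, Id3, Smad5 and Smad6), beside 85.0% of all genes. A spaced motif, the GC-rich element GNCGNC followed after 5 bases by a GTCT box, was found for 1 of the 7, Smad6, beside 0.6% of all genes. Its GTCT is the same one counted above. Only bases outside annotated exons are printed, 5′ to 3′ on the gene's strand, with GGCGCC or the spaced motif in capitals. They lie at chr12:25096254-25096342 (minus strand, 89 bases) for Id2 and chr9:64022060-64022309 (minus strand, 250 bases) for Smad6. The Id2 stretch lies inside the gene as GENCODE annotates it: a longer transcript begins at position 25097140, and the printed bases are in an intron of it. The GTCT counted for the Id2 window is not within this printed stretch. The Smad6 stretch lies upstream of the annotated gene. The windows searched for Bmpr1a, Bmpr2 and Id3 also lie inside the annotated genes, and those of Bmpr2 and Id3 hold only exon bases. The shares over all genes were not matched for GC content. A match describes the letters and does not show that a Smad binds there.
Id2: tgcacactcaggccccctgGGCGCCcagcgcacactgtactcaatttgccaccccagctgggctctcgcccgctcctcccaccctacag
Smad6: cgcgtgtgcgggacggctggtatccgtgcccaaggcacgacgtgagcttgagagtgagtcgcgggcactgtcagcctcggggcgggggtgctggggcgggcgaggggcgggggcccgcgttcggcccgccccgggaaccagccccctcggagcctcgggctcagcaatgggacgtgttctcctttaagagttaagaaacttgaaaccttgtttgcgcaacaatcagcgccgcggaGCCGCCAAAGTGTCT

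The target genes Id1 and Id2 had higher levels in every Apln-/- library than in any wild-type library, with fitted differences of 2.12-fold and 1.82-fold. The receptor genes and 4 of the 5 Smad genes had fitted differences below 0 on the log2 scale, between -0.51 and -0.16, and Smad5 lay at 0.02. None of these differences passed the test: of the 10 genes, 0 were called at an adjusted p under 0.05 (quasi-likelihood test in edgeR, Benjamini-Hochberg adjustment over all genes), beside 0.172% of all genes tested. Of the 10, 6 had a log2 fold change below 0, beside 50.5% of all genes. At an unadjusted p under 0.05 there were 2 of the 10, Id1 and Id2, beside 15.2% of all genes in either direction and 7.53% higher in Apln-/-. The groups did not overlap for 3 of the 10, Id1, Id2 and Bmpr2, beside 20.9% of all genes. With 10 genes, counts of 2 and 3 are not far from these background shares. In bulk RNA, fewer cells of a type and less RNA per cell cannot be told apart.

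The libraries held 23046880 to 26513481 counts. Outside the 5 most abundant entries, led by the mitochondrial ribosomal RNA genes mt-Rnr2 and mt-Rnr1, 5144725 to 5623112 counts were left per Apln-/- library and 6037237 to 7616648 per wild-type library. Apln itself had 0 counts in each Apln-/- library and 29, 7 and 5 counts in wild-type libraries 1, 2 and 3. Epithelial marker genes (Epcam, Cdh1, Krt8, Krt18, Vil1 and Cd44) summed to 1167 to 1263 CPM (counts scaled to a common library size by the TMM method) in Apln-/- libraries and to 1018 to 1275 CPM in wild-type libraries. Apln-/- libraries were more alike, with pairwise Pearson correlations across genes of 0.955 to 0.964, than wild-type libraries, with 0.910 to 0.922. Wild-type library 3 stood apart in the sum of 5 goblet cell markers, at 3862 CPM. That sum was 1467 to 1577 CPM in Apln-/- libraries and 1214 to 1796 CPM in the other wild-type libraries. Muc2, Fcgbp and Clca1 were highest in wild-type library 3. Tff3 (163 CPM) and Spdef (6.62 CPM) in that library lay between the other wild-type libraries.

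**Figure D1:**
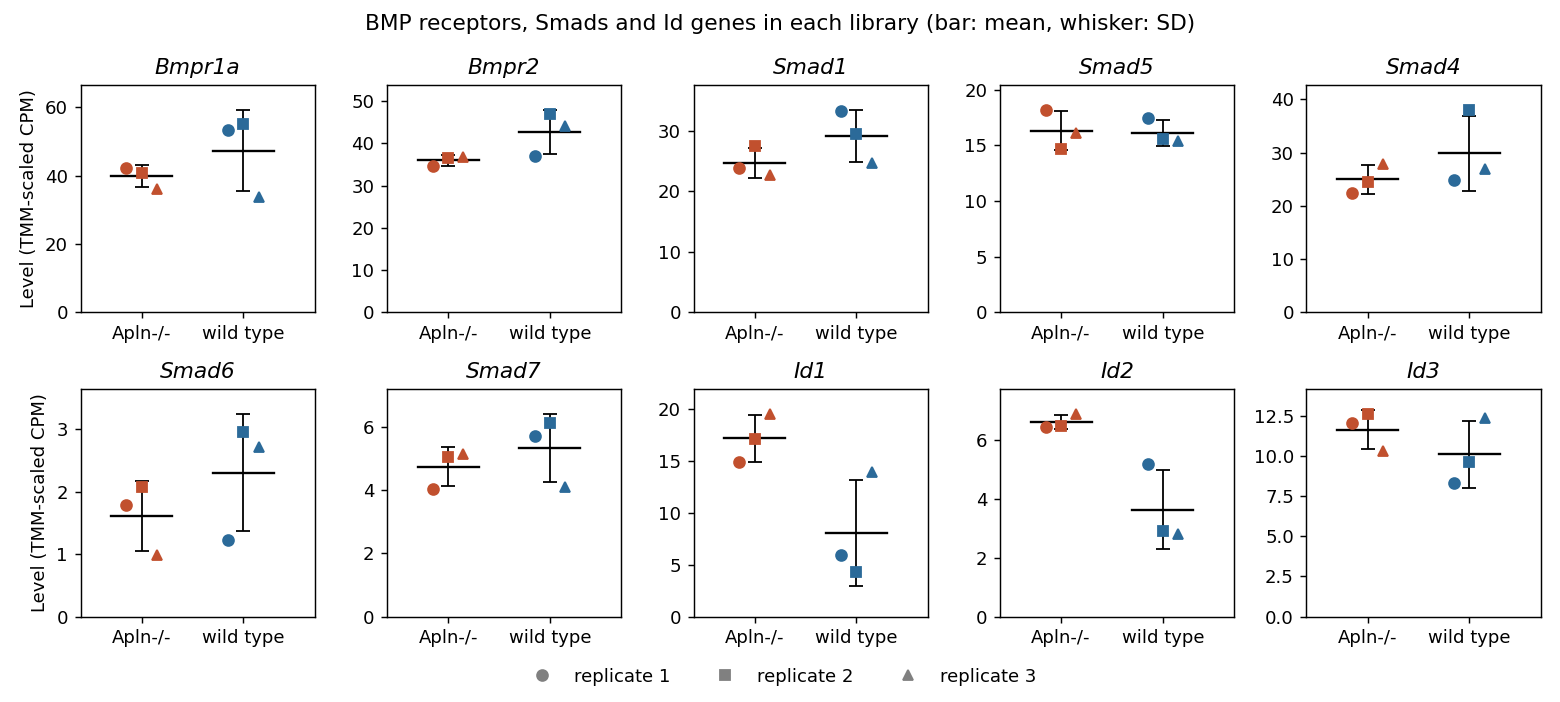
Level of each of the 10 genes in TMM-scaled CPM (vertical axes, each from 0) in the 3 Apln-/- libraries (orange) and the 3 wild-type libraries (blue), with the mean as a bar and the SD as a whisker. Id1 and Id2 lie higher in all Apln-/- libraries, Bmpr2 lies slightly lower in them, and the groups overlap for the other 7 genes.

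Bmpr1a encodes a type I receptor for BMP ligands (ENSMUSG00000021796, chr14:34410734-34503341, minus strand, mm10). Its level was 42.3, 40.9 and 36.1 CPM in Apln-/- libraries 1, 2 and 3, against 53.3, 54.9 and 33.7 CPM in wild-type libraries 1, 2 and 3. Wild-type libraries 1 and 2 were higher than any Apln-/- library, but wild-type library 3 had the lowest value of all, so the groups overlapped. The log2 fold change was -0.25 ± 0.19 (SE; 95% interval -0.66 to 0.16), with an unadjusted p of 0.207 and an edgeR adjusted p of 0.576. Without wild-type library 3 it was -0.44, with an unadjusted p of 0.0139 and an adjusted p of 0.143, and without wild-type library 2 it was -0.14, with an unadjusted p of 0.503. Its adjusted p ran from 0.143 to 0.842 over the 15 alternative fits. Exons of Bmpr1a share 290 of 6351 bases with the antisense gene Gm17110, which had 97 counts over the 6 libraries. The sources used here do not say whether the counting used strand.

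Bmpr2 encodes a type II receptor for BMP ligands (ENSMUSG00000067336, chr1:59763400-59879014, plus strand). It had 34.6, 36.6 and 36.8 CPM in Apln-/- libraries, against 37.0, 47.0 and 44.0 CPM in wild-type libraries. The groups were apart by a narrow margin, since the highest Apln-/- value and the lowest wild-type value differed by less than the SD of either group (1.25 CPM in Apln-/-, 5.14 CPM in wild type). Groups apart in this direction were seen for 9.56% of all genes. Its log2 fold change was -0.25 ± 0.15 (95% interval -0.57 to 0.08, unadjusted p = 0.122, edgeR adjusted p = 0.470). The ratio of Bmpr1a to Bmpr2 counts was 1.22, 1.12 and 0.981 within Apln-/- libraries and 1.44, 1.17 and 0.766 within wild-type libraries, which overlapped.

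The receptor-regulated Smads of the BMP branch are encoded by Smad1 and Smad5. Smad1 (ENSMUSG00000031681, chr8:79338395-79399518, minus strand) had 23.8, 27.5 and 22.8 CPM in Apln-/- libraries, against 33.3, 29.4 and 24.7 CPM in wild-type libraries. Apln-/- library 2 lay above wild-type library 3, so the groups overlapped. Its log2 fold change was -0.24 ± 0.16 (95% interval -0.59 to 0.12, edgeR adjusted p = 0.541). Smad5 (ENSMUSG00000021540, chr13:56703010-56742377, plus strand) had 18.1, 14.7 and 16.1 CPM in Apln-/- libraries, against 17.4, 15.5 and 15.4 CPM in wild-type libraries. These values were interleaved, and the log2 fold change was 0.02 ± 0.17 (95% interval -0.35 to 0.39, edgeR adjusted p = 0.973). Its sign turned when Apln-/- library 1 (-0.06), wild-type library 2 (-0.01) or wild-type library 3 (-0.01) was left out.

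Smad4 encodes the common Smad, which BMP and TGF-beta signals share (ENSMUSG00000024515, chr18:73639009-73703780, minus strand). It had 22.5, 24.5 and 27.9 CPM in Apln-/- libraries, against 24.9, 38.0 and 26.9 CPM in wild-type libraries. Wild-type library 2 alone was higher than every Apln-/- library. The log2 fold change was -0.26 ± 0.18 (95% interval -0.66 to 0.14, edgeR adjusted p = 0.550), and without wild-type library 2 it was -0.06.

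Smad6 and Smad7 encode the inhibitory Smads. Smad6, which acts mainly on the BMP branch, was the member with the fewest counts (ENSMUSG00000036867, chr9:63953076-64022059, minus strand): 38, 45 and 21 counts in Apln-/- libraries and 31, 86 and 86 counts in wild-type libraries. These stand for 1.78, 2.08 and 0.992 CPM in Apln-/- libraries, against 1.23, 2.96 and 2.71 CPM in wild-type libraries. Wild-type libraries 2 and 3 were the highest and Apln-/- library 3 the lowest, while wild-type library 1 fell among the Apln-/- values. The log2 fold change was -0.51 ± 0.46, and at this depth its 95% interval, from -1.51 to 0.49, covered differences of either sign (edgeR adjusted p = 0.649). Smad7, which acts on BMP and TGF-beta receptors (ENSMUSG00000025880, chr18:75367529-75395935, plus strand), had 4.03, 5.03 and 5.15 CPM in Apln-/- libraries, against 5.71, 6.13 and 4.10 CPM in wild-type libraries. The groups overlapped through wild-type library 3, and the log2 fold change was -0.16 ± 0.26 (95% interval -0.74 to 0.41, edgeR adjusted p = 0.820). Per 100 counts of Smad1, Smad7 had 16.9, 18.3 and 22.6 counts in Apln-/- libraries and 17.2, 20.8 and 16.6 counts in wild-type libraries.

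Id1 encodes an inhibitor of DNA binding whose transcription answers directly to BMP signals in many cell types (ENSMUSG00000042745, chr2:152736251-152737410, plus strand). It had 14.96, 17.1 and 19.5 CPM in Apln-/- libraries 1, 2 and 3 (319, 371 and 413 counts), against 5.91, 4.34 and 13.9 CPM in wild-type libraries 1, 2 and 3 (149, 126 and 442 counts). Every Apln-/- library was above every wild-type library, but wild-type library 3 lay close to the Apln-/- values and at more than 2 times each of the other wild-type libraries. The mean was 17.2 ± 2.28 CPM in Apln-/- and 8.06 ± 5.15 CPM in wild type (SD, n = 3 each). The log2 fold change was 1.09 ± 0.35 (95% interval 0.34 to 1.84), with an unadjusted p of 0.00803 and an edgeR adjusted p of 0.170.

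Whether Id1 passed depended on the fit and on wild-type library 3. Over the 15 alternative fits its log2 fold change stayed between 0.77 and 1.75, and its adjusted p ran from 0.000205 to 0.467. Without wild-type library 3, Id1 had a log2 fold change of 1.75 and the edgeR adjusted p 0.0141, in a fit that called 2.27% of all genes. With no filter on low counts the adjusted p was 0.000205 (2.2% of genes called) and with the DESeq2 Wald test 0.0329 (3.84%). Id1 was called in 4 of the 15 alternative fits. The remaining call came with a block on replicate number, which rests on a shared number only (edgeR adjusted p = 0.0407, 1.14% of genes called). Without wild-type library 2 the log2 fold change was 0.77, with an adjusted p of 0.302.

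Id2 encodes an inhibitor of DNA binding known for its part in lymphoid and epithelial differentiation (ENSMUSG00000020644, chr12:25093799-25097140, minus strand). It had 6.42, 6.46 and 6.85 CPM in Apln-/- libraries (137, 140 and 145 counts), against 5.16, 2.89 and 2.81 CPM in wild-type libraries (130, 84 and 89 counts). The Apln-/- values were nearly equal and all above the wild-type values, of which library 1 came closest. The mean was 6.58 ± 0.237 CPM in Apln-/- and 3.62 ± 1.33 CPM in wild type (SD, n = 3 each). For Id2 the log2 fold change was 0.87 ± 0.29 (95% interval 0.24 to 1.495), with an unadjusted p of 0.0109 and an adjusted p of 0.193 by the same edgeR test. It was called in 0 of the 15 alternative fits, where the log2 fold change was 0.71 to 1.19, the unadjusted p 0.000931 to 0.0359 and the adjusted p 0.0948 to 0.552. Groups apart with the Apln-/- libraries higher, as for Id1 and Id2, were seen for 11.3% of all genes.

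Id3 encodes another protein of the family (ENSMUSG00000007872, chr4:136143497-136145755, plus strand). It had 12.1, 12.6 and 10.3 CPM in Apln-/- libraries, against 8.33, 9.61 and 12.4 CPM in wild-type libraries. Wild-type library 3 lay within the Apln-/- range while the other wild-type libraries lay below it. Fitted over all libraries, Id3 was at 0.20 ± 0.21 (95% interval -0.25 to 0.66, edgeR adjusted p = 0.694), with 0.07 without wild-type library 1 and 0.38 without wild-type library 3. Within a library, Id1 had 124, 136 and 189 counts per 100 counts of Id3 in Apln-/- libraries, against 71.0, 45.2 and 113 in wild-type libraries. This ratio needs no scaling between libraries, and it was also higher in every Apln-/- library. It reuses the Id1 counts, and how often such ratios separate for other gene pairs was not measured. As a share of the 3 Id genes per kilobase of transcript, Id1 made up 50.4, 52.9 and 59.3% in Apln-/- libraries. That share, which needs no scaling either, was 35.8, 29.4 and 52.0% in wild-type libraries, so the groups overlapped. Summed, the 3 Id genes came to 33.4, 36.2 and 36.7 CPM in Apln-/- libraries and to 19.4, 16.8 and 29.1 CPM in wild-type libraries.

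**Figure D2:**
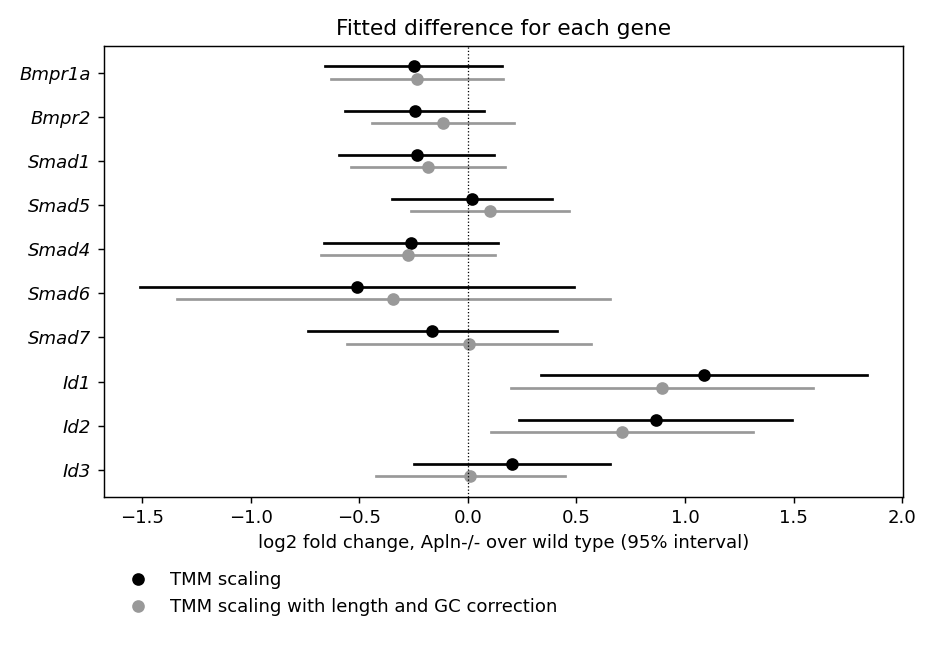
Fitted log2 fold change of each gene, Apln-/- over wild type, with its 95% interval (horizontal axis), with TMM scaling (black) and after a further correction for transcript length and GC content (grey). The intervals of Id1 (0.34 to 1.84) and Id2 (0.24 to 1.495) lie above 0 in both fits, and those of the other 8 genes include 0.

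To set the genes side by side, levels were divided by the length of the longest annotated transcript, in CPM per kilobase. In Apln-/- libraries Id1 was the highest of the 10, at 14.8 ± 1.97 CPM per kilobase, followed by Id3 at 9.12 ± 0.938. In wild-type libraries Smad4 (8.84 ± 2.09), Bmpr1a (7.94 ± 1.98), Id3 (7.90 ± 1.61), Smad1 (7.72 ± 1.13) and Id1 (6.95 ± 4.44 CPM per kilobase; SD, n = 3) came first, and each neighbour in that order overlapped the next. Bmpr2 followed, apart from Id1 above it and Smad5 below it in wild type, at 2.79 ± 0.0970 in Apln-/- and 3.31 ± 0.399 in wild-type libraries. Smad5 overlapped Id2 in wild type, where they had 2.45 ± 0.174 and 1.84 ± 0.677 CPM per kilobase. The inhibitory Smads had the lowest levels in each group, with Smad7 at 1.11 ± 0.143 in Apln-/- and 1.24 ± 0.251 in wild type, and Smad6 at 0.544 ± 0.189 in Apln-/- and 0.775 ± 0.315 CPM per kilobase in wild type.

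Wild-type library 3 took a different place from one gene to the next. It was below the Apln-/- range for Bmpr1a, Id1 and Id2, within it for 5 genes (Smad1, Smad5, Smad4, Smad7 and Id3), and above it for Bmpr2 and Smad6. Wild-type library 2 was above the Apln-/- range for 6 genes, Bmpr1a, Bmpr2, Smad1, Smad4, Smad6 and Smad7, and below it for the 3 Id genes. Library 1 of the wild type was above that range for 4 genes, Bmpr1a, Bmpr2, Smad1 and Smad7, and below it for the 3 Id genes.

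Fold change varied with transcript length over all genes. The Id transcripts are short, at 1160, 1969 and 1278 nucleotides for Id1, Id2 and Id3, and those of the receptors and Smads run from 2971 nucleotides for Smad6 to 12899 for Bmpr2. Over all genes, Spearman's rho between log2 fold change and transcript length was -0.26, a description across genes, which are not independent replicates. In the eighth of genes by length that holds Id1 and Id3 the median log2 fold change was 0.17, and in that of Id2 it was 0.08. In the longest eighth, which holds Bmpr1a, Bmpr2 and Smad5, it was -0.19. The values of Bmpr1a and Bmpr2, -0.25 each, lay near the median of their length class, and Id3, at 0.20, lay near its own. Other members lay away from theirs: Smad5 was at 0.02 in that same longest eighth, Smad6 was at -0.51 where the median was 0.02, and Smad4 was at -0.26 where it was -0.02. Among the receptors and Smads, the shortest transcript, that of Smad6, went with the lowest value. That value had an SE of 0.46 and an interval from -1.51 to 0.49, which includes the median of its length class. The intervals of Smad5 (-0.35 to 0.39) and Smad4 (-0.66 to 0.14) also include the medians of theirs. Whether these members differ from their length classes was not tested.

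With the trends in length and GC content taken out of each library, the log2 fold change was 0.89 for Id1 (95% interval 0.20 to 1.589, unadjusted p = 0.0160) and 0.71 for Id2 (0.11 to 1.31, unadjusted p = 0.0247). Their edgeR adjusted p-values were 0.313 and 0.359. In the same fit Id3 was at 0.01, Bmpr2 at -0.12, Smad7 at 0.01 and Bmpr1a at -0.24. Smad1 was at -0.18, Smad5 at 0.10, Smad4 at -0.28 and Smad6 at -0.34. The median over the 10 genes was -0.20 before and -0.06 after the correction, beside -0.01 and -0.03 for all genes tested. It was also -0.06 without wild-type library 2 and with no such correction. At an unadjusted p under 0.05 the corrected fit held 2 of the 10 genes, both higher, beside 11.5% of all genes (5.19% higher). It called 0 of the 10, beside 0.00661% of all genes.

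**Figure D3:**
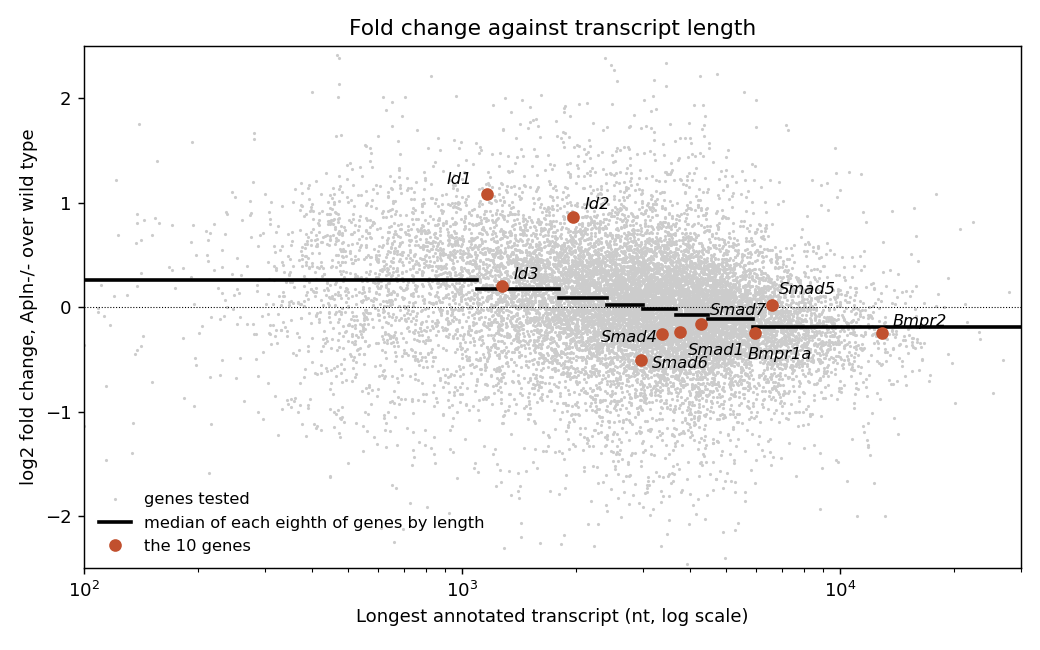
Log2 fold change, Apln-/- over wild type (vertical axis), against the length of the longest annotated transcript in nucleotides (horizontal log axis) for the genes tested (grey, 73 of 15111 outside the plotted range), with the 10 genes in orange and the median of each eighth of genes by length as a black line. The medians run from 0.26 in the shortest eighth to -0.19 in the longest; Id1 and Id2 lie well above the lines and Bmpr1a, Bmpr2 and Id3 close to them.

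Other genes of the pathway gave no call. A list of 46 further BMP pathway genes had 43 in the table, of which 25 were tested and 18 had too few counts. Of the 25, 0 were called in either direction (edgeR adjusted p), 1 had an unadjusted p under 0.05, and 4 had groups apart, with Bmp8b and Hes1 higher and Tab1 and Smurf2 lower in Apln-/- libraries. Over all genes tested these shares were 0.172%, 15.2% and 20.9%. Their median log2 fold change was -0.06, beside -0.01 for all genes tested, with 14 below 0 and 11 above.

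Among 9 ligand genes 4 were tested. Bmp8b, which encodes a BMP ligand, had 2.67, 1.85 and 1.42 CPM in Apln-/- libraries, against 0.913, 0.792 and 1.39 CPM in wild-type libraries (log2 fold change 0.93 ± 0.47, adjusted p = 0.377). The groups were apart, with Apln-/- library 3 and wild-type library 3 nearly equal. Bmp7 was at -0.33 ± 0.28. Of the secreted antagonists, which in the intestine come largely from the mesenchyme, only Twsg1 was tested (0.23 ± 0.18). Nog, the gene of the BMP antagonist noggin, had 1 count over the Apln-/- libraries and 0 over the wild-type libraries. Grem1, the gremlin gene, had 4, 20 and 2 counts in Apln-/- libraries and 3, 0 and 0 in wild-type libraries.

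Of 4 other receptor genes tested, Acvrl1 and Acvr2b had the lowest p, with log2 fold changes of -0.29 ± 0.65 and -0.16 ± 0.49. The co-receptor genes Neo1 and Rgmb were at -0.21 ± 0.14 and 0.05 ± 0.24. Of the inhibitors inside the cell or in its membrane, 8 of 8 genes were tested, with a median of 0.04. Among them Skil and Ppm1a had the lowest p (0.38 ± 0.20 and 0.27 ± 0.18). Tab1, which links receptors to the kinase encoded by Map3k7, had 3.56, 2.35 and 2.93 CPM in Apln-/- libraries, against 3.57, 4.99 and 7.10 CPM in wild-type libraries. Tab1 had the lowest p of the list (log2 fold change -0.83 ± 0.32, unadjusted p = 0.0248, adjusted p = 0.252), and Map3k7 itself was at -0.06 ± 0.16. Smad9, the gene of the remaining receptor-regulated BMP Smad, had 4, 7 and 9 counts in Apln-/- libraries and 32, 4 and 4 in wild-type libraries and was not tested.

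Not every listed target had a value above 0. Id4, the fourth Id gene, had 2.53, 0.692 and 1.04 CPM in Apln-/- libraries, against 2.42, 2.38 and 1.20 CPM in wild-type libraries, a log2 fold change of -0.49 ± 0.54 (adjusted p = 0.720). Hes1, best known as a Notch target, had 27.4, 19.2 and 21.5 CPM in Apln-/- libraries, against 18.3, 17.5 and 16.7 CPM in wild-type libraries. Its groups were apart (log2 fold change 0.38 ± 0.18, unadjusted p = 0.0528, adjusted p = 0.339), and after the length and GC correction it was at 0.18.

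The E proteins that Id proteins bind are encoded by Tcf3, Tcf4 and Tcf12, and 0 of the 3 were called, beside 0.172% of all genes. Tcf3 had 17.0, 14.3 and 13.9 CPM in Apln-/- libraries, against 33.9, 39.3 and 14.5 CPM in wild-type libraries. Wild-type library 3 again lay at the level of the Apln-/- libraries, as it nearly did for Id1, and the groups overlapped through it. The log2 fold change of Tcf3 was -0.96 ± 0.29 (unadjusted p = 0.00616, edgeR adjusted p = 0.156). Tcf3 was called in 3 of the 15 alternative fits: without wild-type library 3 (-1.28, adjusted p = 0.0141, 2.27% of all genes called), with the DESeq2 Wald test (adjusted p = 0.0204, 3.84% called) and with no filter (adjusted p = 0.000204, 2.2% called). Tcf4 was at -0.35 ± 0.23 (adjusted p = 0.508), with 9.71, 9.55 and 11.0 CPM in Apln-/- libraries, against 14.3, 8.82 and 15.6 CPM in wild-type libraries.

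Of 12 genes of the TGF-beta and activin branch, which uses Smad2 and Smad3 and shares Smad4, 8 were tested and 0 were called (0 at an unadjusted p under 0.05), beside 0.172% and 15.2% of all genes. Their median log2 fold change was -0.05, and its sign turned with the length and GC correction (0.13), with limma-voom (0.07), without Apln-/- library 1 (0.03) and without wild-type library 1 (0.17). Smad2 and Smad3 were at 0.04 ± 0.21 and 0.02 ± 0.28. The activin receptor gene Acvr1b was at -0.34 ± 0.20, the co-receptor gene Tgfbr3 at -1.23 ± 0.77 and the ligand gene Tgfb1 at -0.62 ± 0.86.

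**Figure D4:**
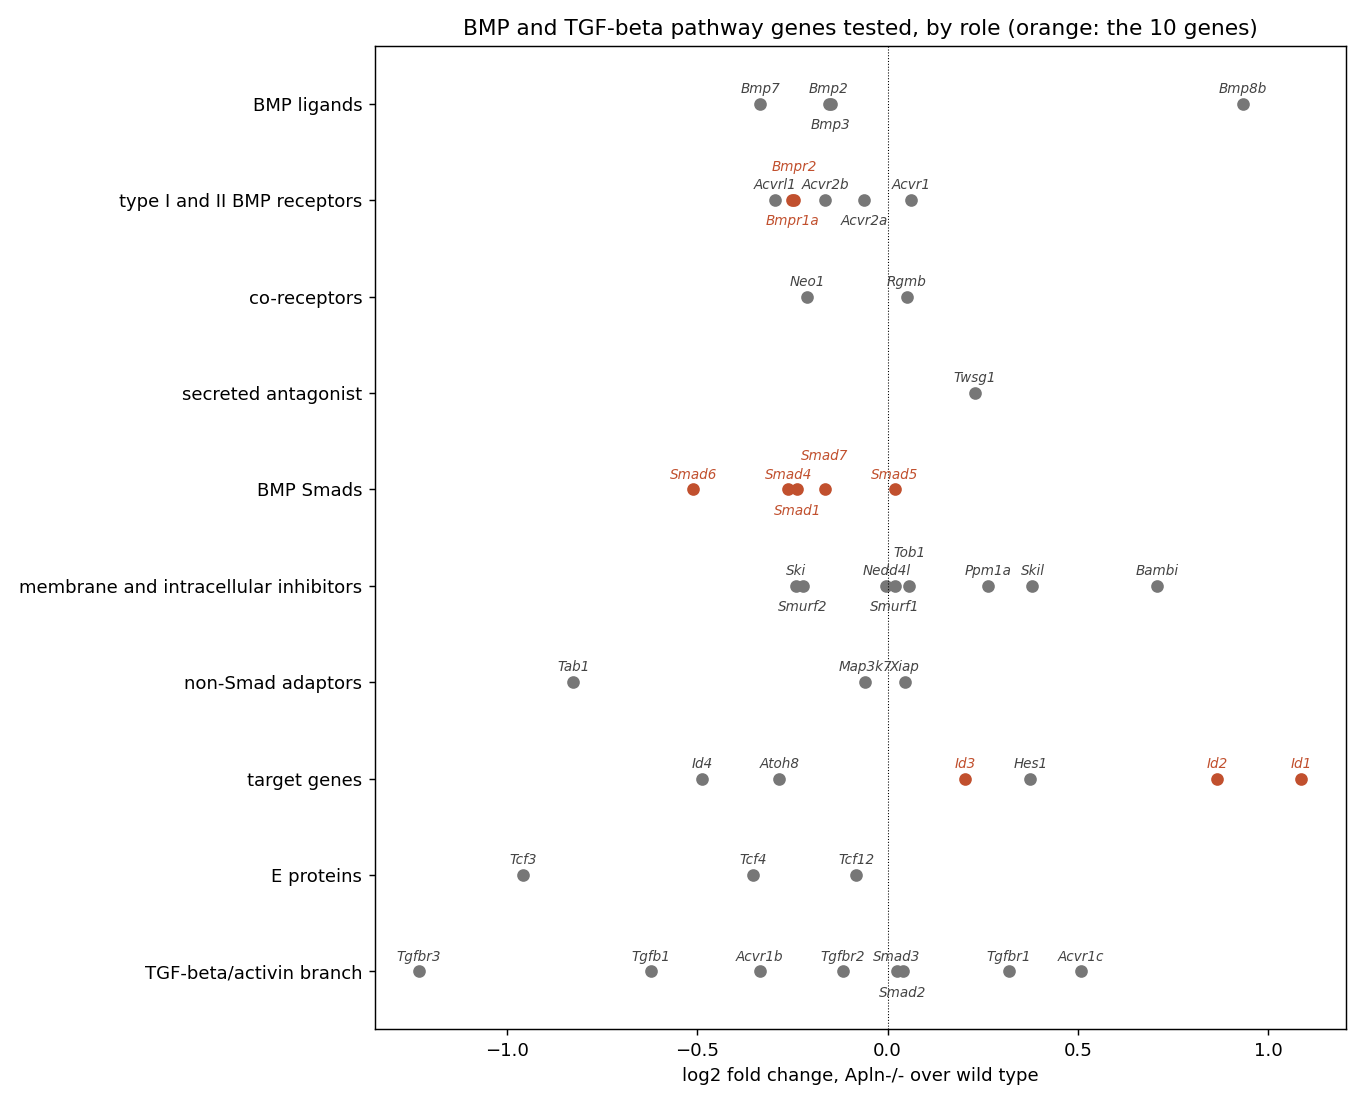
Log2 fold change, Apln-/- over wild type (horizontal axis), of the tested genes of the BMP pathway, the E proteins and the TGF-beta and activin branch, grouped by role, with the 10 genes in orange and the others in grey. Id1 (1.09), Bmp8b (0.93) and Id2 (0.87) lie farthest to the right, and Tgfbr3 (-1.23), Tcf3 (-0.96) and Tab1 (-0.83) farthest to the left, and none of these was called.

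Other cell types that express Id genes or BMP receptors strongly were measured beside these results. Of 7 endothelial markers in the table, 1 had enough counts to be tested, and their sum was 1.20 to 2.95 CPM in Apln-/- libraries and 0.448 to 2.82 CPM in wild-type libraries. The defining endothelial gene Cdh5 had 1 count over the Apln-/- libraries and 0 over the wild-type libraries, and Pecam1 had 13, 1 and 7 counts in Apln-/- libraries and 33, 7 and 6 in wild-type libraries. Egfl7 had 21, 10 and 14 counts in Apln-/- libraries and 4, 0 and 2 in wild-type libraries, with the groups apart, and Esam had 21, 14 and 22 counts in Apln-/- libraries and 31, 0 and 8 in wild-type libraries. The sum of 6 immune markers was 3.21 to 5.21 CPM in Apln-/- libraries and 3.37 to 5.96 CPM in wild-type libraries. Of the 5 immune markers tested, 1 had groups apart: Ptprc, the gene of CD45, was lower in every Apln-/- library. Its level was 1.27, 1.80 and 1.18 CPM in Apln-/- libraries, against 2.82, 3.31 and 2.18 CPM in wild-type libraries (log2 fold change -0.96, edgeR adjusted p = 0.264). The sum of 6 fibroblast markers was 7.88 to 17.1 CPM in Apln-/- libraries and 1.48 to 31.3 CPM in wild-type libraries. The sum of 4 muscle markers reached 22.0 CPM in Apln-/- library 2, against 2.81 CPM in the lowest Apln-/- library and 1.10 to 3.25 CPM in wild-type libraries. Acta2, a smooth muscle actin gene on that list, had 1.13, 6.78 and 1.37 CPM in Apln-/- libraries. Wild-type libraries had 0.913, 0.241 and 0 CPM (23, 7 and 0 counts). Acta2 was higher in every Apln-/- library (log2 fold change 3.04, edgeR adjusted p = 0.176). Tagln (log2 fold change 0.03) and Myh11 (2.70), on the same list, had overlapping groups. Des had 5, 52 and 3 counts in Apln-/- libraries and 1, 1 and 0 in wild-type libraries and was not tested. Without Apln-/- library 2 the log2 fold changes were 1.09 for Id1 and 0.88 for Id2, with edgeR adjusted p-values of 0.344 and 0.377. The part of endothelial, fibroblast, immune or muscle cells in the values of the BMP genes was not tested.

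Among crypt cell types, the marker sums of 4 lists did not overlap between the groups, and those of the stem cell, goblet cell and enterocyte lists did. Of the 5 goblet cell markers 1, Spdef, was apart and lower in Apln-/- libraries. It had 3.80, 2.40 and 5.29 CPM there and 7.66, 6.13 and 6.62 CPM in wild-type libraries. Of the 6 enterocyte markers 1, Fabp1, was apart and lower, at 3.33, 3.14 and 2.03 CPM against 3.57, 7.89 and 5.61 CPM. The 5 Paneth cell markers summed to 949 to 2357 CPM in Apln-/- libraries and 603 to 939 CPM in wild-type libraries, apart by a narrow margin. Of these 5, the groups were apart for Lyz1 alone, at 1577, 633 and 994 CPM in Apln-/- libraries and 588, 384 and 431 CPM in wild-type libraries. The 5 tuft cell markers summed to 23.5 to 57.8 CPM in Apln-/- libraries and 70.9 to 97.7 CPM in wild-type libraries, with 4 of the 5 apart and lower. For the 5 enteroendocrine markers the sums were 387 to 529 CPM in Apln-/- libraries and 682 to 935 CPM in wild-type libraries, with 3 of the 5 apart and lower. Over all genes tested, groups were apart and lower for 9.56% and apart and higher for 11.3%. The 5 markers of dividing cells summed to 356 to 436 CPM in Apln-/- libraries and 478 to 584 CPM in wild-type libraries, and the members of this list differed in direction. Mki67, the most abundant of them, averaged 201 CPM in Apln-/- and 355 CPM in wild-type libraries (log2 fold change -0.82). Cdk1 was higher in every Apln-/- library (0.34), and Top2a, Ccnb1 and Birc5 had values above 0 with overlapping groups. The part of these crypt cell types in the values of the BMP genes was not tested. The sums of 5 stem cell markers overlapped, at 652 to 1308 CPM in Apln-/- libraries and 622 to 956 CPM in wild-type libraries.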

How the data were processed

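Per the labels' protocols, total RNA (RNeasy Plus Micro) was amplified with the Ovation Pico WTA V2 system before Nextera DNA Flex library preparation. The submitters' processing notes name STAR 2.6.1, HTSeq and the build mm10. The annotation release used for counting is not stated there. The authors deposited raw read counts per Ensembl gene, not normalized, in 6 columns. Symbols, positions and transcript lengths came from the GENCODE annotation of mm10, which matched 28551 of 28564 identifiers.

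In R 4.3.3, edgeR 4.0.16 was run on the whole table: filterByExpr (minimum count 10, minimum total 15), TMM scaling, and glmQLFit with glmQLFTest for Apln-/- over wild type without covariates, adjusted by Benjamini-Hochberg over all 15122 genes at a threshold of 0.05. SE and 95% intervals came from that test. Alternatives used DESeq2 1.42.0, limma 3.58.1, other scalings and filters, a loess correction for length and GC content, a replicate block and each library left out. The test was tried on simulated counts.

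The genes and lists were chosen with earlier results of these data known. Named are all 10 genes and, per role of each list, the 2 of lowest p. Nog, Grem1, Smad9 and Smurf2 were named after their values were seen. So were the markers Egfl7, Esam, Acta2, Tagln, Myh11, Des, Lyz1, Mki67, Cdk1, Top2a, Ccnb1, Birc5, Muc2, Fcgbp, Clca1, Tff3, Spdef and Fabp1. The libraries differed by more than sampling noise (chi-square per degree of freedom 8.32 to 61.2 within groups). Counting-error limits ignore amplification.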

Additional observations from a re-analysis of the deposited data

How the results depend on the processing

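Over 15 alternatives to the edgeR fit, Bmpr1a, Bmpr2, Smad1, Smad4, Smad6, Id1, Id2 and Id3 kept the sign of their log2 fold change. Smad5 turned without Apln-/- replicate 1 (-0.06), wild-type replicate 2 (-0.01) or wild-type replicate 3 (-0.01), with a range of -0.061 to 0.094 over left-out libraries, and Smad7 turned with the length and GC correction (0.0051), also with the replicate block added (0.016). Over left-out libraries the log2 fold change ran from -0.34 to -0.14 for Smad1, -0.39 to -0.06 for Smad4, -0.82 to -0.25 for Smad6 and -0.32 to -0.06 for Smad7. The count of called genes among the 10 was 0 as reported and 1, Id1, with the DESeq2 Wald test, with no filter, with the replicate block (log2 fold change 1.25, edgeR adjusted p = 0.0407; 1.02 and 0.126, not called, with the length and GC correction added) and without wild-type replicate 3 (0 to 1 over left-out libraries). Of the E protein genes, 1, Tcf3, was called with the DESeq2 Wald test, with no filter and without wild-type replicate 3 (0 to 1 over left-out libraries). Their median was -0.58 to -0.19 over left-out libraries. The BMP pathway list's median, -0.06 as reported, was 0.018 with limma-voom, 0.051 with no filter, 0.018 with the replicate block and 0.016 with the block and the length and GC correction. The TGF-beta and activin list's median, -0.05 as reported, was 0.16 with the block and that correction, and -0.15 to 0.17 over left-out libraries. For the BMP pathway list, leaving out a library gave -0.11 to 0.032 (0.032 without wild-type replicate 1).

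The count over all genes was 26, with 17 higher and 9 lower. It was 581 with the DESeq2 Wald test (300 higher, 281 lower), 629 with no filter (328 higher, 301 lower), 173 with the replicate block (118 higher, 55 lower) and 56 with limma-voom (43 higher). It was 1 with DESeq2 size factors, with upper-quartile scaling, with the length and GC correction and without the 5 most abundant entries (0 higher, 1 lower in each). It was 0 to 358 over left-out libraries (0 to 253 higher, 0 to 105 lower), with 358 without wild-type replicate 3. Replicate numbers are those of the sample titles, while the table's own columns number the Apln-/- libraries 1, 3 and 4. Libraries of the same title number deviated together by correlations of 0.0109 to 0.0569 and were not taken as pairs, so the replicate block rests on a shared number only. The causes of these shifts were not tested. Depth limits Smad6 most, at 21 to 86 counts a library.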
